A study of Homo sapiens with 23 samples.

Results

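The replication-dependent histone genes are the genes whose symbols run from H1-1 to H1-5 or read H2AC, H2BC, H3C or H4C followed by a number, and membership was set by symbol. The count table of the first libraries held 68 of them among 61806 genes (5 of class H1, 17 of H2A, 18 of H2B, 13 of H3 and 15 of H4), and the table of the deeply sequenced libraries held 65 among 42901 genes, in which H2AC25, H2BC26 and H4C16 were not listed under these symbols. On GRCh38, 54 of the genes lie in 1 cluster at 6p22 (chr6:25723397-27893891), 11 at 1q21 (chr1:149782689-149887965), 2 at 1q42 (chr1:228434777-228463104) and 1, H4C16, on chromosome 12 (chr12:14767999-14771131). All 68 have a canonical GENCODE transcript of 1 exon without introns, and these transcripts are 386 to 2224 nt long.

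Gene expression was measured by RNA-seq in A549, a human lung adenocarcinoma cell line of epithelial character, after depletion of THUMPD3, an enzyme that places a methyl group on guanosines of tRNA. The study asked which transcripts change when the cells lose it, and used 3 knockdowns, each with its own control. In siD3 #3, cells were transfected with an siRNA against THUMPD3 (siTHUMPD3, n = 3) or served as siControl (n = 2 analysed here) and were harvested on day 5. In shD3 #1 and shD3 #4, an shRNA was carried by a lentiviral pLKO-Tet-On construct, which is switched on by doxycycline, and cells were harvested on day 6 (shD3#1, sh1Control, shD3#4 and sh4Control, n = 3 each). The labels give the controls as WT and the methods call them untreated, so that doxycycline may differ between an shRNA library and its control and cannot be told apart from the shRNA here. The last 6 libraries repeat shD3#1 and sh1Control at greater depth (deep shD3#1 and deep sh1Control, n = 3 each). Their day of harvest was not given in the sources used here, nor whether they share cultures with the first libraries.

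Replication-dependent histone genes supply the bulk of the histones that package newly made DNA. Their mRNAs rise as cells enter S phase and are degraded when DNA synthesis stops. They are the only known metazoan mRNAs that normally lack a poly(A) tail: the transcript ends just after a conserved stem-loop, which is bound by the stem-loop binding protein SLBP and cut with the help of the U7 small nuclear ribonucleoprotein. Transcription depends on the coactivator NPAT, which sits at the histone gene clusters. Some of these genes can also make longer, polyadenylated transcripts. Because ribosomal RNA was removed and no poly(A) selection was used, transcripts without a tail could enter the libraries.

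The stem-loop is shown because it is the feature these mRNAs share that the choice of symbols did not use. The pattern searched on the sense strand was GG, 2 bases of any kind, CTTTT, 1 base of any kind, AG, 2 bases of any kind and CC. It was found in the canonical transcript of 65 of 68 members and in 61 of 88987 other protein-coding transcripts of GENCODE release 44 (0.069%). The 16 bases of the stem-loop are in capitals, written 5′ to 3′ as DNA, and the lower-case letters are the flanking bases of the 3′ UTR.
H1-2: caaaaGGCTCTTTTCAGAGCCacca
H2AC11: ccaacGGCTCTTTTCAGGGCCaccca
H2AC15: aaaaaGGTTCTTTTCAGAGCCaccta
H2AC20: ccaaaGGCTCTTTTTAGAGCCaccca
H2BC5: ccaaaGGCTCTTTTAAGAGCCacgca
H3C2: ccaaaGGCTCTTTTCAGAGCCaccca
H4C4: ccaacGGCCCTTTTCAGGGCCaccta
H4C16: caaaaGGCCCTTTTCAGGGCCccca
The capitals lie at chr6:26055744-26055759 (minus strand) for H1-2, chr6:27133515-27133530 (plus strand) for H2AC11, chr6:27837885-27837900 (minus strand) for H2AC15, chr1:149887391-149887406 (plus strand) for H2AC20, chr6:26158587-26158602 (plus strand) for H2BC5, chr6:26031597-26031612 (minus strand) for H3C2, chr6:26188715-26188730 (minus strand) for H4C4 and chr12:14770724-14770739 (minus strand) for H4C16 on GRCh38. The sequence shown for H1-2 and H3C2 was held by 40 members, that of H2BC5 by 8, and those of H2AC11, H2AC20 and H2AC15 by 1 member each. All 14 H4 members with the motif had a stem that starts GGCCC and ends GGGCC, 10 with the sequence shown for H4C4 and H4C16 and 4 with another loop. In H2BC10, H3C6 and H4C13 these letters were found neither in the canonical transcript nor in the 100 bases that follow it.

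Promoter windows in RefSeq (250 bases before to 50 after the start, GRCh38.p14) were matched for 63 of 68 members. They are shown as a feature of the genes, and their part in the changes was not tested. The capitals mark AAACACA, known from H1 genes, or the octamer ATTTGCAT, known from H2B genes as a site for POU2F1.
H1-3: aaggggcaacAAACACAgcagcgcggt
H1-2: gaggtggaacAAACACAacttgggagc
H2BC10: agccagcctcATTTGCATatacacgagg
H2BC18: gcgagtcttcATTTGCATacgggctcta
These windows are H1-3 at chr6:26235090-26235116 (minus strand), H1-2 at chr6:26056573-26056599 (minus strand), H2BC10 at chr6:26272876-26272903 (plus strand) and H2BC18 at chr1:149812402-149812429 (minus strand). Searched on both strands, AAACACA was present in 5 of 5 H1 promoters, 1 of 16 H2A, 0 of 18 H2B, 2 of 11 H3 and 0 of 13 H4 promoters, and in 6.9% of the 27305 genes with a promoter sequence. The octamer was present in 14 of 18 H2B and 11 of 16 H2A promoters, against 2.2% of all genes, in 1 of 11 H3 promoters and in none of the H1 or H4 promoters. CCAAT was present in all H1, H2A, H2B and H3 promoters matched, in 3 of 13 H4 promoters and in 39.7% of all genes. A match is a description of the letters and not a bound site.

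Total counts ran from 9854294 to 22101059 in the first libraries and from 27285889 to 59974740 in the deep libraries. THUMPD3 fell in all comparisons, by 0.97 (shD3 #1), 1.67 (shD3 #4), 2.54 (siD3 #3) and 1.01 (deep libraries) on the log2 scale, and no knockdown library reached a control. Of the A549 markers, the epithelial keratins KRT8 and KRT18 had group means of 1726 to 3293 cpm (the count scaled to the TMM-normalised library size). All 7 A549 markers, which are not all epithelial, summed to 4259 to 8518 cpm. These 7 did not move together. CDH1 was called lower (edgeR adjusted p below 0.05 and a change of 1.5-fold or more) in shD3 #1 and the deep libraries, at -1.39 in each. KRT19 was called higher in shD3 #1 (1.95), in siD3 #3 (1.41) and in the deep libraries. EPCAM was called higher in shD3 #1 and in the deep libraries (1.89 there), and KRT8 in the deep libraries. In shD3 #4 none of the 7 was called. The 9 markers of other cell types summed to 8.002 to 9.08 cpm in sh1Control and 19.5 to 20.4 in shD3#1, 5.59 to 11.2 in sh4Control and 10.4 to 11.4 in shD3#4, and 6.92 to 9.91 in siControl and 33.8 to 36.1 in siTHUMPD3, with CD3E at 0. The deep libraries gave 66.8 to 69.3 cpm in the controls and 139 to 148 cpm in the knockdown. Of those tested, 2 of 2, 1 of 3, 1 of 3 and 4 of 4 were called higher in this order. Among all genes tested, 2389 of 16456, 1320 of 16493, 2135 of 17032 and 2813 of 18763 were called higher. In shD3 #4 and siD3 #3, 1 of 3 is too few to set against these shares. All tested markers of other cell types had positive log2 fold changes. The lowest were 0.74 in shD3 #1, 0.23 in shD3 #4, 0.72 in siD3 #3 and 0.82 in the deep libraries. Their part in the histone results was not tested. Replicate 3 of shD3#1 stood above its group for the histone genes in both sets, with a median deviation of the members from the group mean of 0.29 (log2) in the first and 0.34 in the deep libraries, so results for shD3 #1 are also given without it. The labels call the replicates biological but do not say what separates them. In bulk samples, fewer cells that express a gene and less RNA per cell cannot be told apart.

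Histone mRNA was lower in every knockdown, most in siD3 #3 and least in shD3 #4. Summed over all members, the level was 5174 and 5887 cpm in the siControl libraries and 692, 679.9 and 709 cpm in the siTHUMPD3 libraries. The group means were 5531 ± 504 (SD, n = 2) and 694 ± 14.8 (SD, n = 3) cpm, so 12.5% of the control level was left. No siTHUMPD3 library came near a control, and the 3 agree closely among themselves.

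In shD3 #1 the sum was 3802, 3428 and 4014 cpm in the sh1Control libraries and 1475, 1483 and 1968 cpm in the shD3#1 libraries, with 43.8% of the control mean left. In shD3 #4 it was 5203, 4945 and 4049 cpm in the sh4Control libraries and 3011, 3550.4 and 3383 cpm in the shD3#4 libraries, with 70.0% left. The groups did not overlap in either, but the lowest sh4Control library, replicate 3, was much nearer to the highest shD3#4 library than any pair in the other comparisons. The deep libraries gave 1932, 1898 and 1923 cpm in the controls and 700.3, 783 and 1119 cpm in the knockdown, with 45.2% left, close to the share in the first shD3 #1 libraries although the level itself was lower in the deep table. In cpm of the raw library totals the control means differed too, at 1893 in deep sh1Control and 3658 in the first sh1Control libraries. What separates them was not tested. Apart from H2AC17 and H4C15, levels are not compared between the tables further, since each was counted and normalised by itself.

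**Figure D1:**
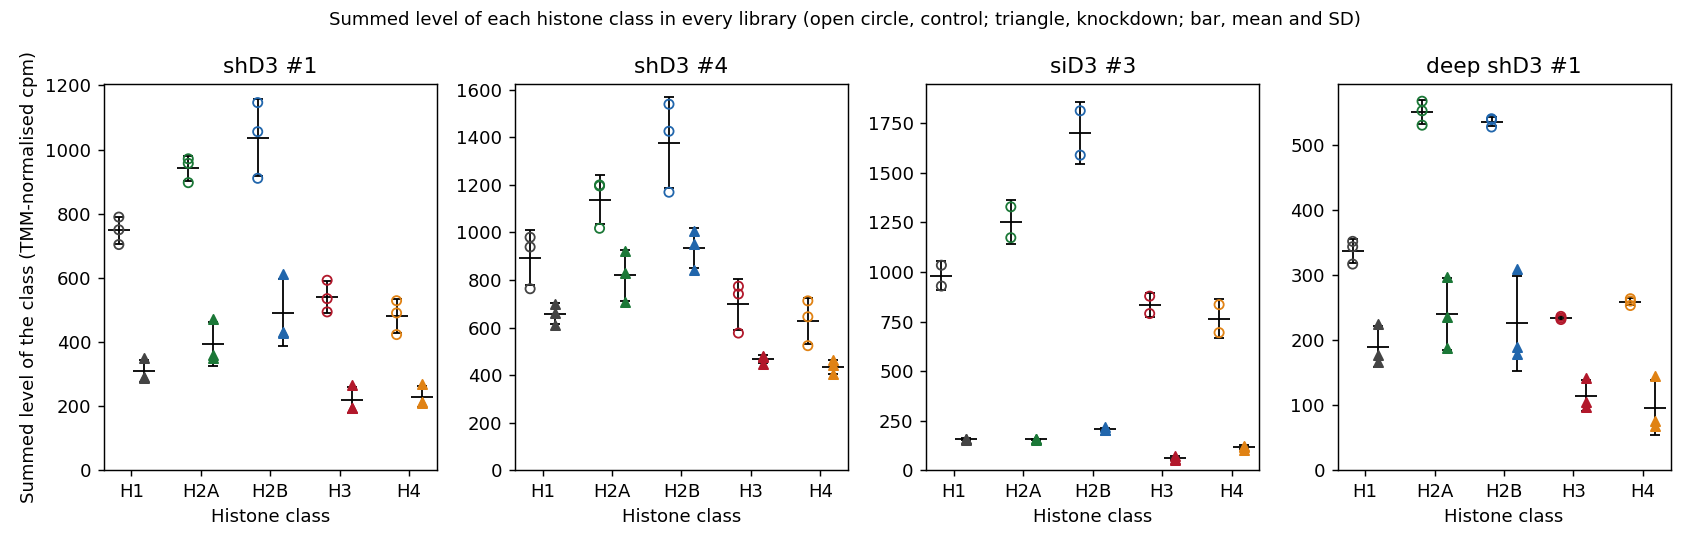
Summed level (TMM-normalised cpm, vertical axis from 0) of the members of each histone class in every library of each comparison, with open circles for controls, triangles for knockdown libraries and bars for the mean and SD. In siD3 #3 each class lies near the bottom of the axis in all 3 knockdown libraries (7.21% of control left for H3 and 15.9% for H1), and in shD3 #4 the distance from the controls is smallest.

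Gene by gene, a gene was called if its edgeR adjusted p was below 0.05 and it changed by 1.5-fold or more. In shD3 #1, 46 of 50 tested members were called lower and 0 higher, where 14.6% of all genes tested were called lower. In shD3 #4 it was 17 of 50 lower and 0 higher, against 4.49% of all genes. In siD3 #3 it was 49 of 50 lower and 0 higher, against 9.42%, and in the deep libraries 46 of 53 lower and 0 higher, against 14.1%. The 46 include H2AC18, H3C14 and H4C14, which passed the filter only through the controls, so that their calls had to follow. Without these 3, 43 of 50 were called lower. H4C11 in shD3 #1, at 0.134 to 1.02 cpm in the knockdown, also met the filter through the controls, so its call there is no support. Other members of few counts were not checked for this. The median log2 fold change of the tested members was -1.28, -0.54, -3.74 and -1.21 in this order, and that of all genes tested was -0.01, 0.01, 0.03 and -0.02. Without replicate 3 of shD3#1 the count and median were 47 and -1.49 in the first libraries, and 49 and -1.37 in the deep libraries.

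The smaller count in shD3 #4 turned on the size threshold. Its adjusted p was under 0.05 with a lower level for 47 of 50 members, where this held for 20.8% of all genes, and in 47 of 50 every shD3#4 library lay below every sh4Control library, against 24.7% of all genes. The same non-overlap held for 47 of 50 members in shD3 #1 (31.2% of all genes), 50 of 50 in siD3 #3 (29.5%) and 49 of 53 in the deep libraries (34.0%). The 49 include H2AC18, H3C14 and H4C14, which had no count in the knockdown. The shD3 #4 count was 9 without sh4Control replicate 1, 10 without shD3#4 replicate 1, 32 without sh4Control replicate 3 and 28 without shD3#4 replicate 2. Values of members near the threshold were -0.58 for H1-3 and H4C3, which missed it, and -0.59 for H2AC14 and H2BC17, which passed.

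**Figure D2:**
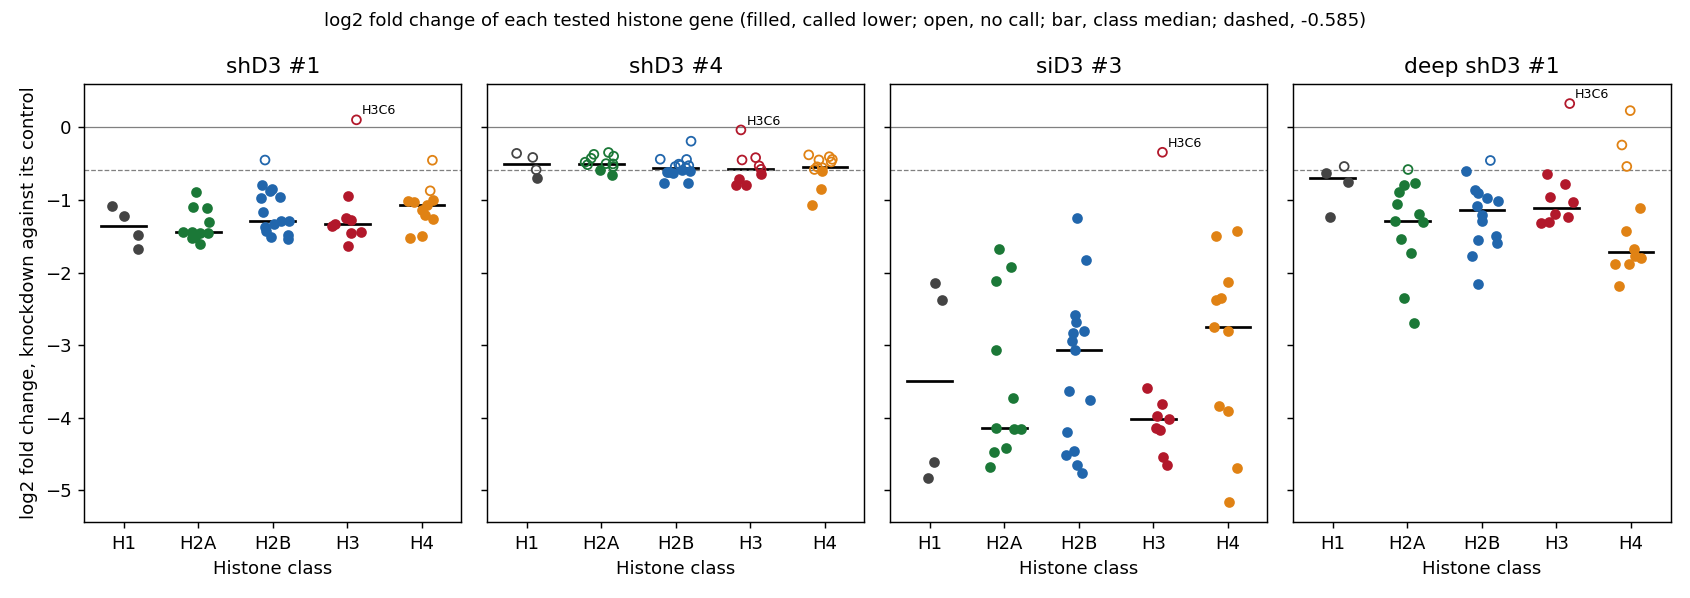
log2 fold change (vertical axis) of each tested member by class, 1 point per gene, filled where called lower and open where not, with the class median as a bar and a dashed line at the size threshold. H3C6 is the highest point in each panel (0.10, -0.04, -0.34 and 0.33), and 3 members of the deep libraries without any count in the knockdown (H2AC18, H3C14 and H4C14) are left out of the drawing but not of the medians.

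Linker histones of class H1 bind the DNA between nucleosomes. Of the 5 members, 4 were tested, and H1-1 had at most 6 counts in any library. The class medians (log2 fold change) were -1.35 for shD3 #1, -0.50 for shD3 #4, -3.50 for siD3 #3 and -0.69 for the deep set, and 4, 1, 4 and 3 of the 4 were called lower. The summed level left in siD3 #3 was 15.9%. The members split in that knockdown: H1-2 and H1-4, the most abundant, kept 22.6% and 19.2% of their level and H1-3 and H1-5 3.50% and 4.11%.

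H1-3 read 244 and 273 cpm in the siControl libraries and 7.74, 8.05 and 11.4 cpm in the siTHUMPD3 libraries. In shD3 #1 it read 205, 191 and 217 cpm in the sh1Control libraries and 60.2, 58.4 and 74.7 cpm in the shD3#1 libraries. Both comparisons left a wide gap between the groups, with log2 fold changes of -4.83 ± 0.17 (SE, edgeR adjusted p = 4.67e-06) and -1.67 ± 0.09 (SE, edgeR adjusted p = 2.29e-10), and H1-3 was the member that fell most in shD3 #1. In shD3 #4 it ran from 207 to 274 cpm in sh4Control and 153 to 171 cpm in shD3#4, without overlap and with a change of -0.58 ± 0.08 (SE, edgeR adjusted p = 1.88e-06) that was just short of the size needed. It ran from 88.0 to 98.9 cpm in deep sh1Control and 36.6 to 46.9 cpm in deep shD3#1 and fell by 1.23 on the log2 scale.

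H1-2 read 324 and 356 cpm in the siControl libraries and 74.4, 73.3 and 82.4 cpm in the siTHUMPD3 libraries, and its log2 fold change was -2.15 ± 0.10 (SE, edgeR adjusted p = 8.38e-06). H1-4 read 339 and 381 cpm in the siControl libraries and 74.4, 68.5 and 64.8 cpm in the siTHUMPD3 libraries, with a change of -2.38 ± 0.10 (SE, edgeR adjusted p = 6.88e-06). Both were lower in each knockdown library than in each control, yet stood well above H1-3 after the knockdown, although the 3 genes differed less in the controls. H1-5 was the only H1 member called lower in all 3 knockdowns, at 12.9 to 18.0 cpm in sh4Control and 8.94 to 9.81 cpm in shD3#4 with a change of -0.69 ± 0.11 (SE, edgeR adjusted p = 1.62e-05), and in the deep libraries its change of -0.54 ± 0.11 (SE, edgeR adjusted p = 0.000753) was under the size threshold.

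Class H2A pairs with H2B to form the dimers at the flanks of the nucleosome core. Of its 17 members 11 were tested in the first libraries, and 11, 2 and 11 of these were called lower in shD3 #1, shD3 #4 and siD3 #3. The deep libraries had 12 of 13 called lower, among them H2AC18, whose call had to follow from the filter. The class medians were -1.45, -0.50, -4.14 and -1.29. In siD3 #3 the members spread from -4.67 (H2AC16) to -1.68 (H2AC6).

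H2AC11, which had the highest level per kb of the class over the first libraries, read 218 and 253 cpm in the siControl libraries and 7.88, 9.36 and 15.7 cpm in the siTHUMPD3 libraries. In shD3 #1 it read 176, 163 and 178 cpm in the sh1Control libraries and 58.3, 61.6 and 91.1 cpm in the shD3#1 libraries. Its level was cut far more by siD3 #3 than by shD3 #1, with log2 fold changes of -4.42 ± 0.25 (SE, edgeR adjusted p = 2.31e-05) and -1.31 ± 0.12 (SE, edgeR adjusted p = 1.41e-07). Replicate 3 was the highest knockdown library in each, but stayed below all controls. The change was -0.50 ± 0.08 (SE, edgeR adjusted p = 6.58e-06) in shD3 #4, not enough in size for a call.

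H2AC20 and H2AC6 were lowered less. H2AC20, at 1q21, read 208 and 226 cpm in the siControl libraries and 49.7, 53.8 and 47.1 cpm in the siTHUMPD3 libraries, and H2AC6, at 6p22, read 148 and 179 cpm in the siControl libraries and 56.2, 53.8 and 43.1 cpm in the siTHUMPD3 libraries. Of the control level 23.1% and 31.2% was left, and their log2 fold changes were -2.11 ± 0.09 (SE, edgeR adjusted p = 8.38e-06) and -1.68 ± 0.14 (SE, edgeR adjusted p = 0.000102). In shD3 #1 they were -1.10 ± 0.08 (SE, edgeR adjusted p = 9.63e-09) and -0.89 ± 0.07 (SE, edgeR adjusted p = 3.97e-08). H2AC25, at 1q42, and H2AC14, at 6p22, were the 2 members of the class called lower in all 3 knockdowns, and in shD3 #4 their changes were -0.65 ± 0.09 (SE, edgeR adjusted p = 2.71e-06) and -0.59 ± 0.09 (SE, edgeR adjusted p = 1.33e-05). H2AC14 shares 66.3% of its 50-base words with H2AC13, so that reads of the 2 genes may have been split or lost in counting.

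Class H2B is the partner of H2A, and 15 of its 18 members were tested in the first libraries. Of these 14 were called lower in shD3 #1, 7 in shD3 #4 and 15 in siD3 #3, and 13 of 14 were lower in the deep libraries. The medians were -1.29, -0.56, -3.07 and -1.14. H2BC7 was the member without a call in shD3 #1 and in the deep libraries. It was low, at 1.28 to 1.45 cpm in sh1Control and 0.737 to 1.17 cpm in shD3#1, without overlap, and its change there was -0.45 ± 0.27 (SE, edgeR adjusted p = 0.177).

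H2BC10 read 77.3 and 88.2 cpm in the siControl libraries and 3.16, 2.63 and 3.29 cpm in the siTHUMPD3 libraries. In shD3 #4 it read 87.9, 79.5 and 69.2 cpm in the sh4Control libraries and 41.7, 48.5 and 48.7 cpm in the shD3#4 libraries. The groups stood apart in both, with log2 fold changes of -4.76 ± 0.13 (SE, edgeR adjusted p = 3.92e-06), the largest fall of the class in siD3 #3, and -0.77 ± 0.08 (SE, edgeR adjusted p = 2.17e-08), the largest of the class in shD3 #4. In shD3 #1 H2BC10 changed by -1.29 ± 0.09 (SE, edgeR adjusted p = 9.45e-09). H2BC10 is 1 of the 3 members without the stem-loop letters in the annotated transcript, and its values lay within the range of members with them in each comparison.

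H2BC18, at 1q21, was among the 3 highest members of the class per kb, and is 1 of the genes with more than 1 annotated transcript. It read 128, 117 and 143 cpm in the sh1Control libraries and 41.2, 43.6 and 67.1 cpm in the shD3#1 libraries, and 183, 169 and 138 cpm in the sh4Control libraries and 95.4, 119.9 and 108 cpm in the shD3#4 libraries. In both the lowest control was above the highest knockdown library, and the changes were -1.37 ± 0.13 (SE, edgeR adjusted p = 2.93e-07) and -0.60 ± 0.09 (SE, edgeR adjusted p = 3.31e-06). In siD3 #3 its change was -3.64 ± 0.11 (SE, edgeR adjusted p = 3.92e-06). The other 2 most abundant members, H2BC5 and H2BC4 (which overlaps an unnamed gene on the opposite strand), were lowered less in siD3 #3, with -2.68 ± 0.11 and -2.59 ± 0.09 (log2 fold change ± SE). H2BC5 ran from 66.7 to 67.5 cpm in deep sh1Control and 13.95 to 28.1 cpm in deep shD3#1, a change of -1.78 ± 0.16 (SE, edgeR adjusted p = 2.75e-07), and in the first shD3 #1 libraries its change was -0.88 ± 0.12 (SE, edgeR adjusted p = 1.52e-05). H2BC3, H2BC13, H2BC17 and H2BC26 were also called lower in all 3 knockdowns, with siD3 #3 changes of -4.19, -4.46, -4.51 and -2.84.

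H3 and H4 form the tetramer at the centre of the nucleosome. H3C13, H3C14 and H3C15 encode the form H3.2 and the other H3 members of this set encode H3.1. Of 13 members 9 were tested in the first libraries, and 8, 4 and 8 were called lower in shD3 #1, shD3 #4 and siD3 #3. The class medians were -1.33, -0.58 and -4.01, and -1.11 in the deep libraries, where 9 of 10 were called lower. The 9 include H3C14, whose call had to follow from the filter. The summed level left in siD3 #3, 7.21%, was the lowest of the 5 classes.

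H3C2 had the highest level per kb of the class and read 279 and 307 cpm in the siControl libraries and 13.8, 13.1 and 23.0 cpm in the siTHUMPD3 libraries. H3C12 read 115 and 127 cpm in the siControl libraries and 4.199, 3.48 and 6.67 cpm in the siTHUMPD3 libraries. Neither left any overlap between the groups, and the changes were -4.14 ± 0.23 (SE, edgeR adjusted p = 1.73e-05) and -4.65 ± 0.22 (SE, edgeR adjusted p = 9.43e-06). In shD3 #1 H3C12 read 87.3, 75.6 and 95.1 cpm in the sh1Control libraries and 25.8, 25.9 and 32.4 cpm in the shD3#1 libraries, the lowest log2 fold change of the class at -1.63 ± 0.10 (SE, edgeR adjusted p = 1.32e-09). In shD3 #4 H3C13 fell most among H3 members, from 49.3 to 62.9 cpm in sh4Control and 32.7 to 33.6 cpm in shD3#4, with a change of -0.80 ± 0.08 (SE, edgeR adjusted p = 9.18e-09). H3C7, H3C10, H3C12 and H3C13 were called lower in all 3 knockdowns and in the deep libraries, and H3C2 missed the size threshold in shD3 #4 at -0.45.

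Of the members tested in all 3 knockdowns, H3C6 alone was called in none. It read 10.4, 9.80 and 12.05 cpm in the sh1Control libraries and 10.6, 11.2 and 13.4 cpm in the shD3#1 libraries, and 12.1, 12.6 and 12.8 cpm in the sh4Control libraries and 12.6, 12.8 and 11.1 cpm in the shD3#4 libraries. The groups overlapped in both, with changes of 0.10 ± 0.12 (SE, edgeR adjusted p = 0.48) and -0.04 ± 0.09 (SE, edgeR adjusted p = 0.79). In siD3 #3 it read 15.2 and 16.003 cpm in the siControl libraries and 13.0, 12.3 and 11.6 cpm in the siTHUMPD3 libraries, all 3 below both controls but with 78.7% of the control level left and a change of -0.34 ± 0.12 (SE, edgeR adjusted p = 0.0616). It read 4.30, 3.97 and 3.99 cpm in the deep sh1Control libraries and 5.22, 4.10 and 5.95 cpm in the deep shD3#1 libraries, a change of 0.33 ± 0.13 (SE, edgeR adjusted p = 0.0447), which passed the adjusted p but not the size threshold, and the groups overlapped. H3C6 had the highest log2 fold change of all tested members in each of the 4 comparisons. GENCODE gives it 2 transcripts, the longer of 2679 nt and 2 exons, and the stem-loop letters were not found in the canonical one (482 nt). They were also not found in H2BC10 or in H4C13, and H4C13 had the lowest siD3 #3 value of all members (-5.16). A part of the stem-loop in these changes was not tested.

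The members of class H4 encode nearly always the same protein. Of 15 members 11 were tested in the first libraries, of which 9, 3 and 11 were called lower in shD3 #1, shD3 #4 and siD3 #3, and 9 of 12 were called lower in the deep libraries. The 9 of the deep libraries include H4C14, whose call had to follow from the filter. The 9 of shD3 #1 include H4C11, which met the filter there through the controls. The class medians were -1.07, -0.54, -2.75 and -1.72. Across the class siD3 #3 values ran from -5.16 to -1.43.

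H4C13 had the lowest log2 fold change of all members in siD3 #3. It read 42.2 and 53.3 cpm in the siControl libraries and 1.18, 1.03 and 1.74 cpm in the siTHUMPD3 libraries, with 2.76% of the control level left and a change of -5.16 ± 0.20 (SE, edgeR adjusted p = 6.88e-06). In shD3 #4 it read 41.7, 41.4 and 33.4 cpm in the sh4Control libraries and 18.6, 23.3 and 23.0 cpm in the shD3#4 libraries. All knockdown libraries were below all controls, and the shD3 #4 change was -0.85 ± 0.09 (SE, edgeR adjusted p = 3.74e-08). H4C4, the most abundant H4 member per kb, read 123 and 156 cpm in the siControl libraries and 10.3, 9.54 and 9.41 cpm in the siTHUMPD3 libraries and changed by -3.84 ± 0.12 (SE, edgeR adjusted p = 3.92e-06) in siD3 #3 and by -0.60 ± 0.09 (SE, edgeR adjusted p = 5.04e-06) in shD3 #4. H4C3 and H4C5, the next in level, changed by -2.81 ± 0.15 and -2.38 ± 0.17 in siD3 #3 (log2 ± SE) and missed the size threshold in shD3 #4 at -0.58 and -0.38.

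H4C11 and H4C12 were low and share 92.1% and 92.6% of their 50-base words with each other, so their counts are uncertain. H4C12 changed by -0.87 in shD3 #1, -0.40 in shD3 #4, -1.43 in siD3 #3 and 0.23 in the deep libraries. It was called lower only in siD3 #3. H4C11 read 1.14, 1.22 and 0.907 cpm in the sh1Control libraries and 0.134, 0.479 and 1.02 cpm in the shD3#1 libraries, and replicate 3 of shD3#1 lay within the controls. Its change of -1.14 ± 0.43 (SE, edgeR adjusted p = 0.0341) was called, but not by DESeq2 (adjusted p = 0.0773) and not in edgeR with any 1 of 5 of the 6 libraries left out (adjusted p from 0.0575 to 0.181). H4C16, alone on chromosome 12, was lowered less than the class. It read 67.9 and 74.7 cpm in the siControl libraries and 28.4, 24.4 and 22.9 cpm in the siTHUMPD3 libraries, all below the controls, and changed by -1.50 ± 0.11 (SE, edgeR adjusted p = 7.75e-05). In shD3 #1 and shD3 #4 its change of -0.45 ± 0.08 (SE, edgeR adjusted p = 0.000163) and -0.44 ± 0.08 (SE, edgeR adjusted p = 5.29e-05) was under the size threshold.

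Across the 3 knockdowns, 17 of the 50 members tested in each were called lower in all 3, where 0.805% of all genes tested in each were. They were 1 H1 member (H1-5), 2 H2A (H2AC14 and H2AC25), 7 H2B (H2BC3, H2BC4, H2BC10, H2BC13, H2BC17, H2BC18 and H2BC26), 4 H3 (H3C7, H3C10, H3C12 and H3C13) and 3 H4 (H4C4, H4C11 and H4C13). These are the same 17 genes that were called in shD3 #4. Among them, H4C11 met the filter in shD3 #1 through the controls. With 1 library left out (sh4Control replicates 1 and 2 and shD3#4 replicates 1 and 3 in turn), H1-5, H2AC14, H2AC25, H2BC3, H2BC4, H2BC13, H2BC17, H2BC18 and H4C4 each lost that call at least once, and each stayed below 0. Of the 17, 13 were also lower in the deep libraries and 2 are not in that table. The remaining 2 were H1-5 and H4C11, with deep changes of -0.54 and -0.54.

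Whether the knockdowns differed in their effect was tested in 1 edgeR fit of all 17 first libraries, in which each knockdown had its own control. The effect differed between knockdowns for 46 of 51 members tested, where it did for 52.4% of all genes. The siD3 #3 effect was lower than that of shD3 #1 for 45 members (11.7% of all genes) and lower than that of shD3 #4 for 46 (8.56%), and the shD3 #4 effect was higher than that of shD3 #1 for 34 (13.8%). In the opposite direction 0 members were called in each, against 13.6%, 9.24% and 12.1% of all genes. For H1-3 the siD3 #3 effect minus the shD3 #1 effect was -3.14 ± 0.18 (SE, edgeR adjusted p = 1.69e-10), and for H4C13 it was -3.63 ± 0.28 (SE, edgeR adjusted p = 5.66e-09). For H2BC12 it was -0.95 ± 0.16 (SE, edgeR adjusted p = 7.11e-05), and it was -0.39 ± 0.19 (SE, edgeR adjusted p = 0.118) for H2AC25, without a call. H2BC7, H3C6, H4C11, H4C12 and H4C14 were the 5 members without a difference called. The siRNA and shRNA experiments differ in the delivery, the day of harvest and the depth of THUMPD3 loss, and these cannot be told apart.

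**Figure D3:**
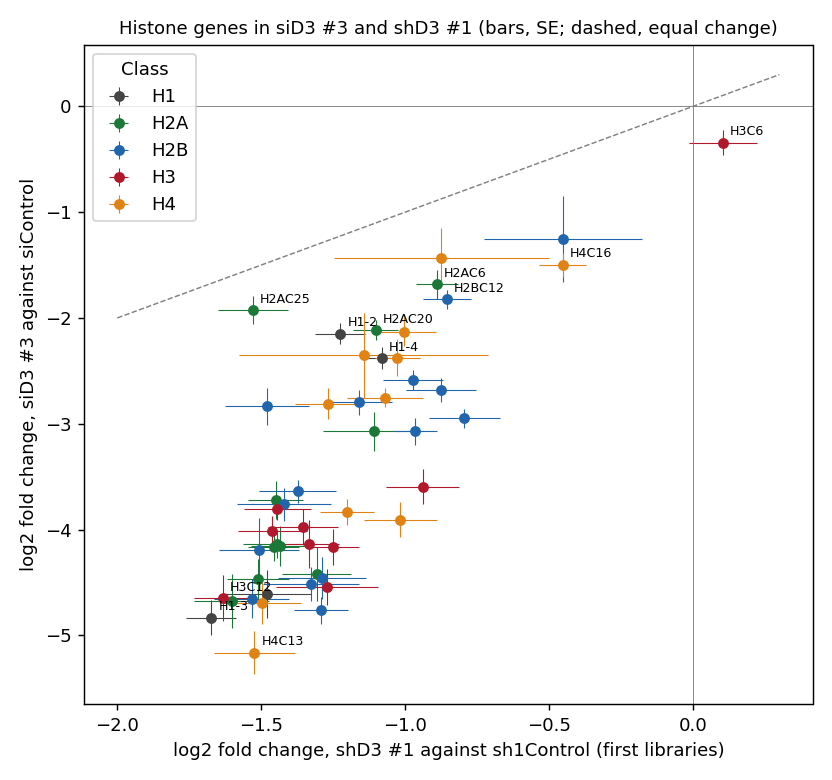
log2 fold change of each member tested in the first libraries in siD3 #3 (vertical axis) against shD3 #1 (horizontal axis), with bars for the SE, colours for class and a dashed line of equal change. All 50 points lie below the dashed line, H3C6 at the upper right (0.10 and -0.34) and H1-3 and H4C13 at the lower left.

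The order of the members was similar in siD3 #3 and shD3 #1, with Pearson's r = 0.79 and Spearman's rho = 0.75 over 50 members. It was less so in shD3 #4 against shD3 #1 (r = 0.56 and rho = 0.47 over 50) and in the deep against the first shD3 #1 libraries (r = 0.51 and rho = 0.39 over 47). For shD3 #4 against siD3 #3 the values were r = 0.44 and rho = 0.43 over 50. These points are genes that share libraries, sequence and base composition and are no independent replicates.

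By position, the median of every cluster was below 0 in the 3 knockdowns. In siD3 #3 the median log2 fold change was -2.80 for the 22 tested members of the first block of 6p22 (chr6:25723397-26285638), -4.42 for the 5 of the middle block (chr6:27125897-27147562), and -4.16 for the 15 tested in the last block (chr6:27807479-27893891). It was -3.64 for 5 members at 1q21 and -2.38 for the 2 at 1q42. In shD3 #1 the same 5 values were -1.12, -1.42, -1.45, -1.25 and -1.50, and in shD3 #4 they were -0.52, -0.54, -0.59, -0.50 and -0.71. The deep libraries gave -1.21, -1.06 and -1.11 for the 3 blocks of 6p22, where the first block was lowest and not highest, and -1.57 for the 10 tested at 1q21, of which 3 were at 0 in the knockdown. These are descriptions, and no difference between clusters or classes was tested.

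**Figure D4:**
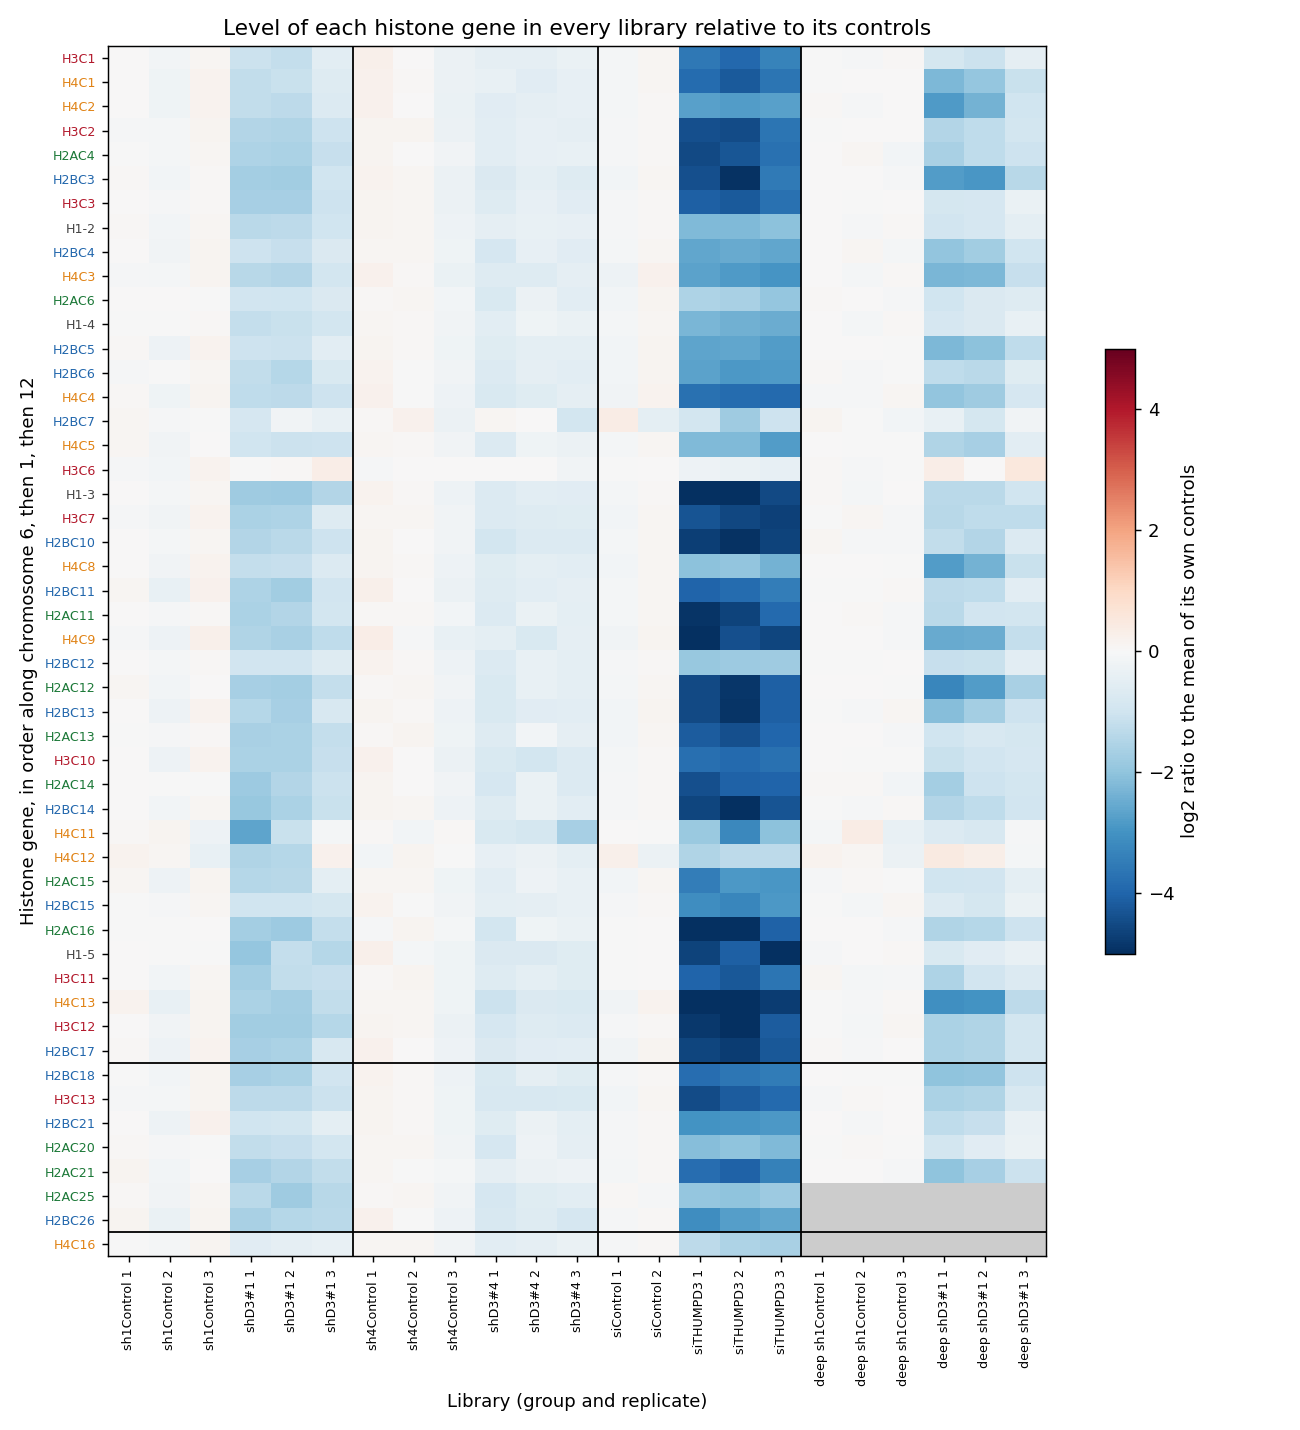
log2 ratio of the cpm of each member (plus 0.05) to the mean of its own controls in every library, with the genes tested in the first libraries in rows, ordered along chromosomes 6, 1 and 12 and coloured by class, and libraries in columns; the colour scale stops at -5 and 5 and grey marks genes not in the deep table. Blue fills all siTHUMPD3 columns from top to bottom except at H3C6, and replicate 3 of shD3#1 is paler than replicates 1 and 2 in both sets.

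Many H2A and H2B genes lie head to head with 194 to 251 bases between their starts. There were 12 such pairs, of which 8 had both members tested in the first libraries. The log2 fold changes of the partners lay within 0.5 of each other in all 8 pairs in shD3 #4, 7 pairs in shD3 #1 and 2 pairs in siD3 #3. Of these 8 pairs 7 had both members tested in the deep libraries, and 4 lay within 0.5 there. In shD3 #4 all tested H2A members lay between -0.65 and -0.35 and all H2B members between -0.77 and -0.19. Any H2A member was thus within 0.5 of any H2B member there. Genes outside the pairs were not compared, so the counts show nothing particular to partners. The widest gap in shD3 #1, siD3 #3 and the deep libraries was that of H2AC12 and H2BC12, which start 251 bases apart. In shD3 #4 it was that of H2AC13 and H2BC13, at -0.40 and -0.63. In siD3 #3 H2AC12 read 100.2 and 115 cpm in the siControl libraries and 4.62, 3.60 and 6.22 cpm in the siTHUMPD3 libraries, and H2BC12 read 154 and 171 cpm in the siControl libraries and 44.1, 46.0 and 47.9 cpm in the siTHUMPD3 libraries. Of H2AC12 4.48% of the control level was left and of H2BC12 28.3%, with changes of -4.47 ± 0.19 (SE, edgeR adjusted p = 6.88e-06) and -1.82 ± 0.09 (SE, edgeR adjusted p = 1.07e-05). H2AC6 and H2BC4, 246 bases apart, changed by -1.68 ± 0.14 and -2.59 ± 0.09.

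Grouped by features that the choice of symbols did not use, the 31 tested members with a stem-loop other than that of H2BC5 or the H4 stem had a median of -4.14 in siD3 #3 and -1.36 in shD3 #1. The 6 with the loop of H2BC5 had -2.63 and -0.92, and the 10 with the H4 stem had -2.56 and -1.05. The order was another in the deep libraries, at -1.20, -1.23 and -1.67 for the 33, 6 and 11 members tested there. Members with 1 annotated transcript (36 tested) had a median of -4.07 in siD3 #3, and those with 2 or more (14 tested) had -2.74. The deep values were -1.22 and -1.01 (40 and 13 tested). In shD3 #4 all these medians lay between -0.55 and -0.51. These groups overlap with class, and their differences were not tested.

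Of the 18 members not tested in the first libraries, 17 stayed under 10 counts in every library of each comparison and the highest count of all was 11. They were H1-1, H2AC1, H2AC7, H2AC8, H2AC17, H2AC18, H2AC19, H2BC1, H2BC8, H2BC9, H3C4, H3C8, H3C14, H3C15, H4C6, H4C7, H4C14 and H4C15. H2AC1 and H2BC1 are known as histones of the testis. H2AC18 and H2AC19, H3C14 and H3C15, and H4C14 and H4C15 are near-identical copies at 1q21 that share 99.2% to 100% of their 50-base words. Counting kept only reads that map to 1 place, so a low count there does not show that the genes were silent. A difference in their level was not detectable at this depth.

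In the deep libraries 3 of these copies were tested and had no count in any knockdown library. H2AC18 read 0.442, 0.556 and 0.289 cpm in the controls, H3C14 0.544, 1.07 and 0.289 cpm and H4C14 0.544, 0.357 and 0.379 cpm. Against a floor of 3 counts over the group, the reads assigned to H2AC18 were at least 13.3-fold lower. Those assigned to H3C14 were at least 19.4-fold lower and those to H4C14 at least 13.5-fold. These bounds cover counting error only. Because each gene has a near-identical copy, they describe the reads assigned to that gene and not how far its level fell. H2AC18, H3C14 and H4C14 passed the filter on low counts only through the controls, so their calls had to follow. Without them 43 of 50 members were called lower with a median of -1.19. With these 3 at their bounds the median of the members stayed at -1.21. The other copy of H4C14, H4C15, read 25.3, 25.7 and 24.5 cpm in the deep sh1Control libraries and 18.4, 20.2 and 24.8 cpm in the deep shD3#1 libraries, a change of -0.24 ± 0.09 (SE, edgeR adjusted p = 0.0226) with overlapping groups, while in the first table it was at most 0.287 cpm. H2AC17 likewise read 109, 117 and 107 cpm in the deep controls and 20.7, 26.4 and 52.3 cpm in the deep knockdown, and at most 0.311 cpm in the first libraries. In GENCODE 71.0% of its length is also exon of an H3C12 transcript on the same strand, and whether the tables assign such reads differently was not tested. H2AC7 and H3C4 overlap an unnamed gene on their strand over 85.3% and 96.6% of their length.

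Genes of DNA replication were often lower in the first libraries. Of 34 S phase and DNA replication genes, all tested, 33 were called lower in siD3 #3, 20 in shD3 #1, 11 in shD3 #4 and 6 in the deep libraries, with 0 higher in each, against 9.42%, 14.6%, 4.49% and 14.1% of all genes, so that the deep count was near the background. The medians were -2.56, -0.67, -0.53 and -0.31. MCM10, a replication initiation factor, was lowest in siD3 #3 at -3.77. CLSPN, a replication checkpoint adaptor, was lowest in shD3 #1 at -1.50 and in the deep libraries at -0.99. For the deep libraries the median of the histone members was -1.21 where that of these genes was -0.31, and the highest of them, GINS3, was at 0.45 (edgeR adjusted p = 0.000433), short of the size threshold. The part of cells in S phase was not measured.

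Outside siD3 #3, few of the factors that make and process histone mRNA were called. Of 19 such factors 18 were tested, and 1 was lower and 1 higher in shD3 #1 (ZNF473, part of the U7 machinery, at -0.69, and LSM11, a U7 core protein, at 0.77), 1 lower in shD3 #4 (ERI1, the exonuclease that trims the stem-loop, at -0.67), 5 lower in siD3 #3 (NPAT, CASP8AP2, SLBP, CPSF3 and ERI1) and 1 lower in the deep libraries (ZNF473). Of all genes, 14.6%, 4.49%, 9.42% and 14.1% were called lower in this order, and 14.5% were called higher in shD3 #1. Outside siD3 #3 the counts were near or below these shares and show nothing about the group. SLBP had log2 fold changes of -0.18 ± 0.08 (SE, edgeR adjusted p = 0.06) in shD3 #1 and -0.52 ± 0.08 (SE, edgeR adjusted p = 5.47e-06) in shD3 #4, without a call in either. In siD3 #3 it fell, with a change of -1.17 ± 0.10 (SE, edgeR adjusted p = 0.000112) on the log2 scale, and was the lowest of the list. Its deep value was 0.20 ± 0.05 (SE, edgeR adjusted p = 0.00474), short of the size threshold. NPAT had -0.77 ± 0.10 (SE, edgeR adjusted p = 0.00104) in siD3 #3, also called lower, and -0.10 ± 0.07 (SE, edgeR adjusted p = 0.242) in shD3 #1 and -0.15 ± 0.07 (SE, edgeR adjusted p = 0.104) in shD3 #4. RNU7-1, the U7 RNA, is a very short transcript and was listed at 0 in the first libraries.

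Histone genes outside the symbol set, listed as independent of replication, were also partly lower. Of 11 tested, 5 were called lower in shD3 #1, 2 in shD3 #4 and 6 in siD3 #3, and 5 of 10 in the deep libraries, against the shares of all genes above, with medians of -0.34, -0.44, -1.09 and -0.58. The centromeric histone CENPA was called lower in all 4 comparisons, and the replacement histones H3-3A and H3-3B in none. CENPA was the lowest in siD3 #3 at -3.69. Of 20 histone chaperones and carriers, 11 were lower in siD3 #3, 6 in shD3 #1, 1 in shD3 #4 and 3 of 19 in the deep libraries. The shD3 #4 and deep counts are near the shares of all genes called lower, 4.49% and 14.1%, and show nothing about the group, and 9.42% and 14.6% of all genes were lower in siD3 #3 and shD3 #1. Only ASF1A in shD3 #1 was called higher (0.66). ASF1B, a chaperone of H3 and H4, was the lowest of them in siD3 #3 at -3.49 and in shD3 #1 at -1.32.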

How the data were processed

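RNA-seq was analysed in 23 libraries of A549 cells, 17 first and 6 deep. The authors depleted ribosomal RNA (Ribo-Zero) and prepared directional libraries, trimmed reads with Trimmomatic 0.40, aligned them to GRCh38.p14 with STAR 2.7.10a and counted reads per gene, and the deposited values of both tables are raw counts per gene. The methods name RefSeq, while the first table lists Ensembl identifiers. Which strand setting was used for counting was not given in the sources used here. No sample column was left unused.

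Symbols of the first table, gene positions and transcripts came from GENCODE release 44 on GRCh38. Library sizes were normalised by TMM, low genes were removed by filterByExpr at its defaults, and the quasi-likelihood test of edgeR 4.0.16 (R 4.3.3) was run on the counts of each knockdown against its own controls, with Benjamini-Hochberg adjustment over all genes tested. A call required an adjusted p below 0.05 and a change of 1.5-fold or more. Levels are cpm on TMM-normalised library sizes, per kb of the canonical transcript where genes are ranked. Errors are SE of the fit or SD between libraries, and bounds from counts cover counting error only. Transcripts were called near-identical by shared words of 50 bases. Named in full were the 3 highest members of each class, the lowest and highest change of each comparison, members called lower in all 3 knockdowns, and any called higher; H2AC12, H2AC13, H2AC18, H2BC7, H2BC12, H4C12, H4C14, H4C15, H4C16, H2AC16 and H2AC17 were added after their values were seen. Alternatives were DESeq2 1.42.0, its size factors in edgeR, 2 other filters, each library left out, a replicate block and 1 fit of all 17 libraries. Scripts were tested on simulated data. An item of the lists is not reported here by name. The members and lists were chosen with earlier results of these data known.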

Additional observations from a re-analysis of the deposited data

Results flagged for a closer look

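The effect of the knockdown differed between siD3 #3, shD3 #1 and shD3 #4 for 46 of the 51 histone genes tested in the edgeR fit of all 17 first libraries (52.4% of all genes), and for 26 of the genes named by the rule on level, extremes and calls in all 3 knockdowns. For these 26 the siD3 #3 effect minus the shD3 #4 effect, on the log2 scale, was below 0 in every case. It was -1.72 for H1-2, -4.23 for H1-3, -2.01 for H1-4 and -3.91 for H1-5 in class H1, and -1.15 for H2AC6, -3.90 for H2AC11, -3.54 for H2AC14, -1.60 for H2AC20 and -1.26 for H2AC25 in class H2A. In class H2B it was -3.55 for H2BC3, -1.97 for H2BC4, -2.15 for H2BC5, -3.98 for H2BC10, -3.81 for H2BC13, -3.91 for H2BC17, -3.02 for H2BC18 and -2.06 for H2BC26. In class H3 it was -3.67 for H3C2, -3.88 for H3C7, -3.00 for H3C10, -3.93 for H3C12 and -3.35 for H3C13, and in class H4 -2.21 for H4C3, -3.22 for H4C4, -1.98 for H4C5 and -4.30 for H4C13. The siControl group holds 2 libraries, and siRNA and shRNA cells differ in delivery and harvest day, whose part was not tested. No group held 4 or more libraries, so that no single library was tested for standing far from its group.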

How the results depend on the processing

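Every median of members and of classes stayed below 0 under all alternatives, and the count of members called lower stayed within 1.5 times its value except in shD3 #4 with 1 library left out, where it ran from 9 to 32. With 1 library left out, the member median ran from -1.49 to -1.19 in shD3 #1 and the H1 median from -1.41 to -1.22. In siD3 #3 the H1, H2A and H4 medians ran from -3.56 to -3.38, -4.23 to -3.98 and -2.75 to -2.48, and in the deep libraries the H3 and H4 medians from -1.35 to -1.08 and -2.19 to -1.47, lowest without replicate 3 of the knockdown. In siD3 #3, without a filter beyond 1 count, the member median was -3.04 and the H1, H2A and H4 medians -2.41, -3.75 and -2.40, with members of few counts added. With at least 10 counts in every library the H2A and H2B medians were -3.88 and -3.31, and in 1 fit of all 17 libraries the H4 median was -2.57. H3C6 in shD3 #4, never called, ran from -0.076 to 0.022 with 1 library left out and changed sign without shD3#4 replicate 3 alone. H1-4 lost its deep call without knockdown replicate 1 (-0.54) or 2 (-0.58). H2AC20 gained a deep call under 7 alternatives and H1-5 without knockdown replicate 3 (-0.65). Of all calls of single genes, 31 were lost and 23 gained over 1187 comparisons with an alternative. The replicate numbers did not pair the samples: same-numbered deviations correlated between -0.101 and 0.136. With the replicate block the counts called lower were 46 in shD3 #1, 16 in shD3 #4, 49 in siD3 #3 and 47 in the deep libraries, and 46 members differed between knockdowns. The block moved the siD3 #3 H1 median to -3.37, and H2BC17 in shD3 #4 fell just under the size threshold (-0.58). Leaving out libraries for the summed level was added after the data were seen. Counts called lower by DESeq2 were 45, 18, 48 and 46. Near-identical copies and genes under about 10 counts could not be resolved at this depth.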
